A study of Mus musculus with 16 samples.

Results

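The microarray used for this study carries, beside its gene probes, probes that its design names only by a stretch of the mouse genome and a strand. This account describes the 1021 non-control probes of that kind on chromosome 8, out of 55681 non-control probes in all, and 15160 region probes lie on other chromosomes. The rule that picks the 1021 probes reads only their design coordinates (genome build mm9). They cover 289 combinations of span and strand and 217 distinct spans. Regions that overlap by at least 1 base on either strand were joined and counted once, which gave 127 loci. Each locus carries a number from 1 to 127 in order along the chromosome, and each position below is the outer span of the locus in mm9.

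Many parts of the genome outside protein-coding genes are transcribed into long RNAs that are processed like messenger RNA but carry no long reading frame. Such transcripts are often made in only a few cell types, and some act on the chromatin or the expression of neighbouring genes, while for most no function is known. Both strands of a locus can be transcribed, and an interval with probes for both strands can therefore report on more than 1 RNA. The design gives the interval but not the place of the probe inside it, and no gene annotation of build mm9 was used here, so exons, introns and untranslated regions are not assigned. Probe sequences were not analysed here.

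The arrays were hybridised with RNA from retina and retinal pigment epithelium (RPE, the pigmented cell layer behind the photoreceptors) in the same sample. There were 4 groups of 4 samples: nm3342 mutant at 1 month, nm3342 mutant at 1 year, wild type at 1 month and wild type at 1 year. All 16 samples are labelled C57Bl/6J and male, and the series presents nm3342 as a potential mouse model of serous retinal detachment, the lifting of the retina from the RPE by fluid. The labels do not name the mutated gene, so the genotype labels could not be checked on a target. They describe material from both retinas of mice without saying that each sample is 1 animal, so p-values measure the spread between these samples.

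Per array, 82.1% to 89.6% of non-control spots were well above background, and 75th percentiles of the processed signal lay between 603 and 994. Markers of the labelled tissue were present: 5 of 5 rod, 4 of 4 cone and 3 of 4 RPE markers were above background on all 16 arrays. Since a sample holds many cell types, fewer cells of a type and less RNA per cell cannot be told apart. Xist, an RNA of the inactive X of female cells, was at -0.38 to -0.03 on 3 arrays and at -8.61 to -5.68 on the other 13. Those 3 arrays, replicates 2 and 3 of the younger mutants and replicate 1 of the older mutants, go against their label of male sex. Levels here are log2 signals from which the array's 75th percentile was subtracted, so that 0 is that percentile. A difference is called when its Benjamini-Hochberg adjusted p from limma, over all 49241 probes tested, is under 0.05.

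The loci were spread unevenly. In windows of 10 Mb, the number of loci ran from 2 at either end of the chromosome to 19 between 120 and 130 Mb, with 15 between 40 and 50 Mb and 14 between 70 and 80 Mb. A locus was 77 to 360001 bp wide, with a median of 12451 bp, and held a median of 6 probes. Of the 127 loci, 75 had probes for both strands, 24 for the forward strand only and 28 for the reverse strand only. The joining of overlapping regions mattered for 54 loci, which together hold 144 spans. The widest locus, locus 14 at chr8:19678750-20038750, also had the most probes, 38.

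Most of these regions gave a measurable signal. The filter asked for a signal well above background on 4 or more of the 16 arrays, whatever their group. It kept 881 of the 1021 probes, 440 forward and 441 reverse, and 723 were above background on all 16 arrays. Of the 140 probes that failed, 64 were above background on no array and 76 on 1 to 3 arrays. After the filter 122 loci could be tested, and for each the passing probe with the highest mean over the 16 arrays stands for the locus. The 5 loci left out lie at 8.72, 10.91, 37.24, 54.66 and 83.46 Mb and hold 1 to 3 probes each. By window, the share of probes kept ran from 70.4% (90 to 100 Mb) to 96.9% (70 to 80 Mb).

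Counted array by array, 119 to 124 of the 127 loci had at least 1 probe well above background. Mean counts of loci were 121.75 ± 0.96 (SD, n = 4 here and below) for mutants and 120.75 ± 2.22 for wild types at 1 month. At 1 year they were 121.75 ± 0.50 for mutants and 120.50 ± 2.38 for wild types, and the groups overlapped. The number of probes above background stood apart at 1 place on the slides. The 4 arrays of slide 1 row 2, 1 from each group, had 854 to 903 of the 1021 probes above background, and the other 12 arrays had 776 to 830. On those 4 arrays 83.6% to 88.4% of the chromosome 8 probes and 81.1% to 85.6% of the region probes elsewhere were above background. That row is balanced over the 4 groups, and calls that are lost without it are named below.

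One locus near the distal end of the chromosome separated the genotypes at both ages. Locus 126 at chr8:130666467-130821034 is a 154568 bp interval with 1 probe, A_30_P01026991, on the reverse strand. In the 1-month mutants its level was -1.48, -1.32, -1.38 and -1.61, and in the 1-month wild types -6.50, -7.29, -6.14 and -6.78. In the 1-year mutants it was -0.72, -0.43, -0.33 and -0.56, and in the 1-year wild types -7.36, -5.52, -7.35 and -6.99. All 8 mutant arrays lay far above all 8 wild-type arrays, with no overlap at either age. The probe was well above background on all 8 mutant arrays and on 1 of the 8 wild-type arrays, 1-year replicate 2, so the wild-type level is at or near the limit of measurement.

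At 1 month the mutant was higher by 5.23 ± 0.34 on the log2 scale (SE, adjusted p = 1.07e-06). Since no 1-month wild-type array measured the probe above background, this is given as at least 27.7-fold with this processing. That sets the mutant mean of -1.45 against a background-limited wild-type level of -6.24. The level is not a strict detection limit for this probe. On 1-month wild-type replicate 3 it read -6.14, over that array's lowest flagged signal of -6.18, without being flagged. At 1 year the difference was 6.29 ± 0.34 (adjusted p = 1.68e-07), with 1 of 4 wild-type arrays above background, so the fitted size rests largely on values below background. The 1-month and 1-year differences were not shown to be unequal: the difference between them was 1.07 ± 0.47 (adjusted p = 0.596). Within the mutants the 1-year level was higher by 0.94 ± 0.34 (adjusted p = 0.181), with no overlap of the groups but no call, and within the wild types the change was -0.13. That SE draws on all 4 groups. The SDs at 1 month and 1 year were 0.13 and 0.17 in the mutants and 0.49 and 0.87 in the wild types. Without 1-year wild-type replicate 2, an array outside this comparison, the change in the mutants was called (0.94 ± 0.20, adjusted p = 0.0226).

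**Figure D1:**
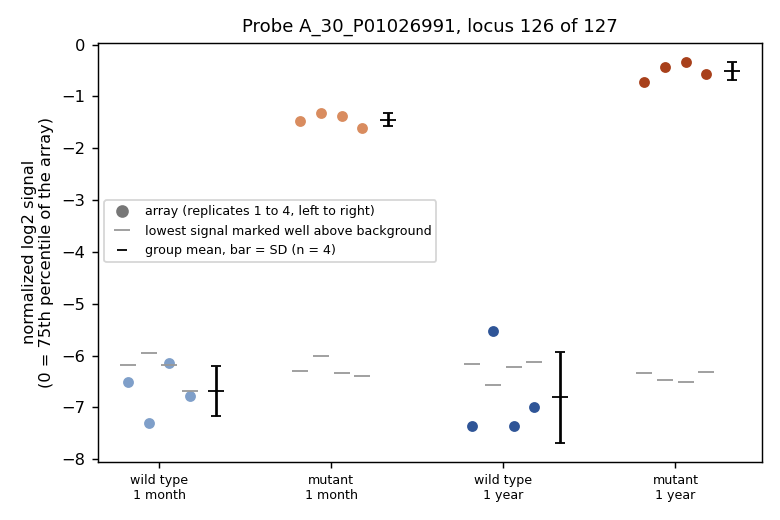
Normalized log2 signal of probe A_30_P01026991, the only probe of locus 126, on each of the 16 arrays (points), with the group mean and SD in black (n = 4) and grey dashes at the lowest signal marked well above background on each array. The mutant arrays sit between -1.61 and -0.33, and the wild-type arrays between -7.36 and -5.52, near the grey dashes.

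The size of this difference depends on how low signals are processed, and the wild-type signal was at or near background. With the normexp background correction, which here also added an offset of 50 to every signal, the differences were 2.40 at 1 month and 3.40 at 1 year. Both were still called. The parts of the correction and of the offset in the smaller size were not separated. Within slides, the change was 5.43 (adjusted p = 0.121) at 1 month and 6.06 (adjusted p = 0.0889) at 1 year on slide 1, and 5.02 (adjusted p = 0.0066) and 6.53 (adjusted p = 0.0019) on slide 2, each with 2 arrays per group. On slide 2 the wild types are all in row 1 and the mutants all in row 2, so row and genotype cannot be told apart there. With array row as a covariate over both slides the differences were 5.04 and 6.10, both called. Leaving out the 3 arrays with high Xist gave 5.13 and 6.36, both called. The 3 microglial markers, all above background on all 16 arrays, also differed by genotype without overlap: their mean level was 0.67 to 0.75 in the 1-month mutants against -0.13 to -0.08 in the wild types, and 1.13 to 1.36 against 0.47 to 0.92 at 1 year. The RPE markers were at 1.46 to 1.79 in the 1-month mutants and 1.05 to 1.43 in the wild types, and at 1.41 to 1.68 and 1.71 to 2.47 at 1 year, so their order turned between the ages. The melanin synthesis markers, given below, turned in the same way without overlap. At 1 month the endothelial markers (-0.20 to 0.08 against -0.64 to -0.32) were higher in the mutants without overlap. So were the 2 measured erythrocyte markers (0.30 to 4.62 against -1.66 to 0.19). At 1 year the rod markers were lower in the mutants without overlap (5.83 to 6.06 against 6.07 to 6.21). The part of these cell types in the result was not tested.

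This was the 1 call among the 122 chromosome 8 loci at 1 month (0.82%), where 1.08% of all probes were called, 0.768% higher and 0.313% lower in the mutant. At 1 year it was again the 1 call (0.82%), where 0.396% of all probes were called, 0.27% higher and 0.126% lower. Over all 881 passing probes of chromosome 8 it was likewise the 1 call at each age (0.114%). Of region loci on other chromosomes, 0.493% were called at 1 month and 0.0493% at 1 year, and a count of 1 on chromosome 8 is too small for a comparison with them. At an unadjusted p under 0.05, 22 of the 122 loci passed at 1 month and 9 at 1 year. Locus 126 was also the only chromosome 8 locus whose mutant arrays lay on 1 side of the wild-type arrays at both ages in the same direction, which 0.778% of all probes do. Its probe met the filter through the mutant arrays, since only 1 wild-type array, at 1 year, was above background. Probes that met the filter in this way were not set apart in the shares of all probes. With a filter that asked for a signal above background on every array, locus 126 could not be tested.

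**Figure D2:**
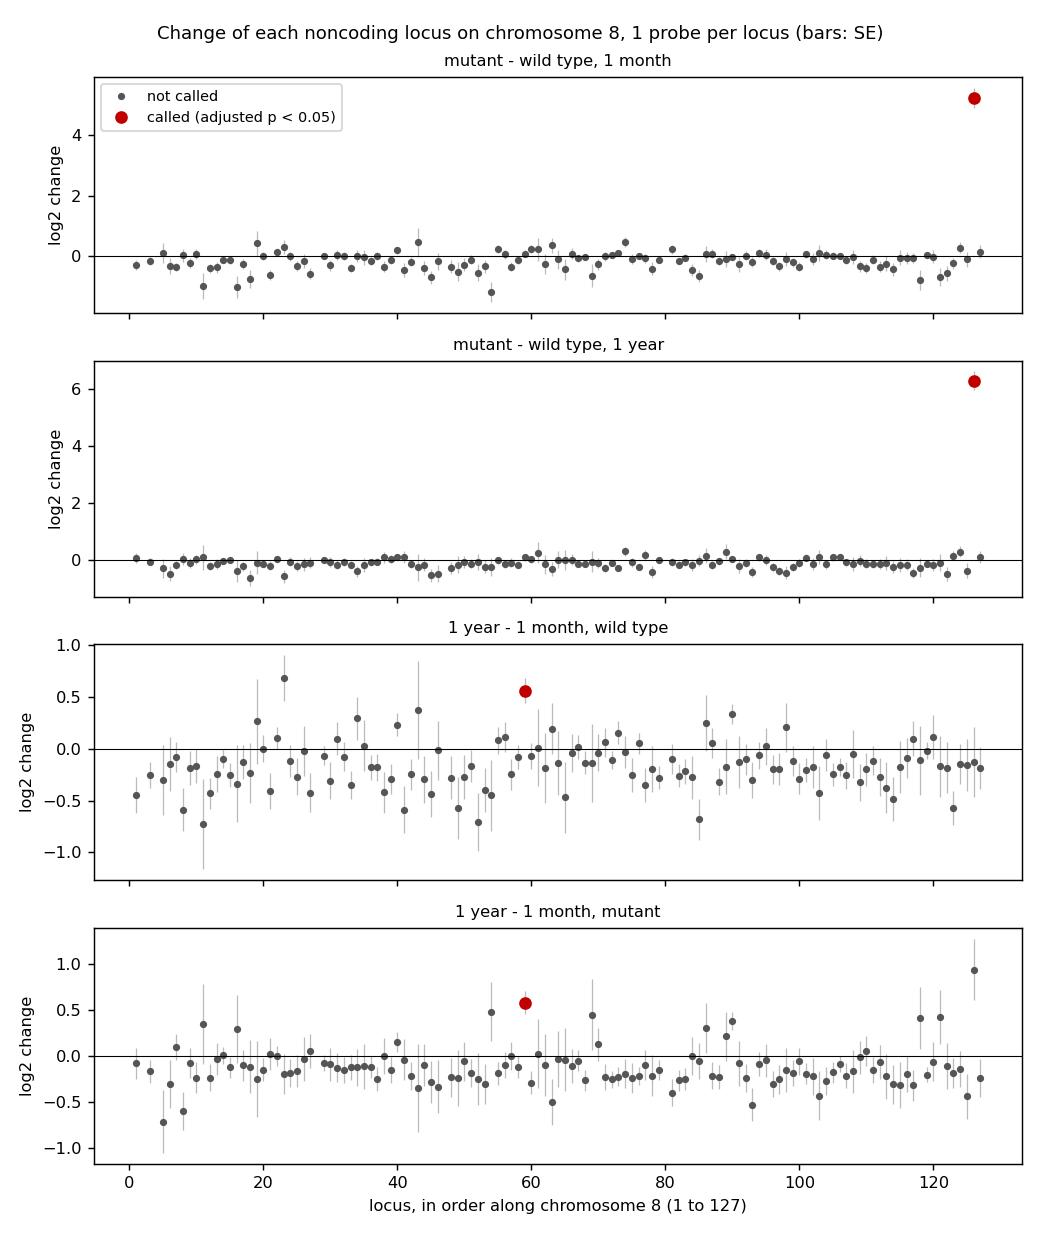
Log2 change of each of the 122 tested loci with its SE (grey bars), in order along chromosome 8, for the 2 genotype comparisons and the 2 age comparisons; red points are called. Locus 126 stands at 5.23 and 6.29 in the upper panels and locus 59 at 0.56 and 0.58 in the lower panels, and the vertical scales differ between panels.

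The other loci gave no call between genotypes. The median change of the 122 loci was -0.13 at 1 month and -0.13 at 1 year, with 37 and 27 loci higher in the mutant, where the median of all probes was -0.03 and -0.05. Region loci on other chromosomes had medians of -0.13 and -0.11, close to those of chromosome 8. The chromosome 8 medians stayed below 0 with normexp, quantile and median scaling and in the authors' deposited matrix (-0.13 to -0.06 at 1 month). Groups that did not overlap were found for 7 loci at 1 month (2 higher, 5 lower), a share of 5.74% against 6.5% of all probes, 3.98% higher and 2.53% lower. At 1 year there were 10 (1 higher, 9 lower), a share of 8.2% against 6.55% of all probes, 2.9% higher and 3.65% lower.

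The loci next in line at 1 month were not called. At locus 21, chr8:27259077-27268252, probe A_30_P01033008 was at -1.14, -1.26, -1.17 and -0.62 in the mutants and -0.16, -0.56, -0.46 and -0.47 in the wild types. The groups did not overlap, with mutant replicate 4 nearest to the wild types, and the change was -0.64 ± 0.17 (adjusted p = 0.111). All 5 passing probes of this locus had negative changes at 1 month, from -0.64 to -0.09, as did 592 of all 881 passing chromosome 8 probes. At locus 54, chr8:59966759-59989065, probe A_30_P01024460 was at 3.72, 3.32, 2.96 and 4.73 in the mutants and 5.26, 4.68 and 4.67 in the wild types, whose replicate 4 was an outlier spot and was dropped. Mutant replicate 4 overlapped the wild types, and the change was -1.19 ± 0.34 (adjusted p = 0.141), while 6 of the 10 passing probes of the locus had positive changes.

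Mutant 1-month replicate 4, on which the most chromosome 8 probes were above background (903), is named here because the count depends on it. Without it, 6 loci were called at 1 month in place of 1, and the 5 added loci were all lower in the mutant. They were locus 54 (-1.54, adjusted p = 0.0121), locus 21 (-0.78, adjusted p = 0.0283), locus 85 at 87.50 Mb through probe A_30_P01030362 (-0.81, adjusted p = 0.0398) and the loci of probes A_30_P01027726 (-1.42, adjusted p = 0.0299) and A_30_P01022814 (-0.77, adjusted p = 0.0267). Leaving out any other array of the 16 left 1 call at 1 month.

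At 1 year the loci with the next smallest p-values were also lower in the mutant and not called. Probe A_30_P01027500 of locus 117, chr8:124355710-124401160, was at -2.15, -2.24, -2.86 and -2.12 in the mutants and -1.90, -1.96, -1.69 and -1.93 in the wild types. Mutant replicate 3 was far below the rest, and the change was -0.47 ± 0.17 (adjusted p = 0.387). Probe A_30_P01023350 of locus 76, chr8:80581177-80621652, was at -1.64, -1.93, -1.65 and -1.73 in the mutants and -1.53, -1.43, -1.31 and -1.61 in the wild types. These groups lay side by side without overlap, 0.27 ± 0.10 apart (adjusted p = 0.415).

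The distal end of the chromosome held further probes that leaned the same way at both ages, although none of them was called. These loci were singled out after their values were seen. Such leaning was not particular to the distal end. In locus 14, 29 of 38 passing probes were lower in the mutant at 1 month and 34 at 1 year, and in locus 112, 26 and 27 of 32. Locus 124, chr8:129102060-129109035, has 4 reverse and 3 forward probes that passed the filter. Its reverse probes were 0.84 ± 0.22 (A_30_P01029091, adjusted p = 0.0954), 0.81 ± 0.30 (A_30_P01031663, adjusted p = 0.255), 0.27 and 0.21 higher in the mutant at 1 month. At 1 year they were 0.57, 0.76, 0.28 and 0.47 higher in the same order, and the last, A_30_P01019695, stood at -0.78, -0.74, -0.96 and -0.92 in the mutants and at -1.36, -1.30, -1.33 and -1.28 in the wild types.

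For A_30_P01019695 the groups did not overlap at 1 year (0.47 ± 0.16, adjusted p = 0.369), but at 1 month they did. For A_30_P01029091 the 1-month values were -2.50, -2.40, -2.52 and -2.14 in the mutants and -2.55, -3.12, -3.42 and -3.84 in the wild types. Every mutant array was the higher, with wild-type replicate 1, an array of slide 1 row 2, next to the mutants. The 3 forward probes of locus 124 had changes of -0.04 to 0.05 at 1 month and -0.04 to 0.24 at 1 year. The larger differences were those of the reverse strand, and the difference between strands was not tested.

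The most distal locus, locus 127 at chr8:131168275-131182125, leaned the other way on its forward strand. The 3 forward probes that passed were at -0.53, -0.48 and -0.72 at 1 month and -0.59, -0.77 and -0.62 at 1 year, and the 1 reverse probe was at 0.15 and 0.09. The lowest adjusted p was that of A_30_P01026464 at 1 year (-0.77 ± 0.18, adjusted p = 0.0982). At that age its mutant values were -4.40, -4.23, -4.17 and -4.14 and its wild-type values -3.51, -3.60, -3.44 and -3.30. All 4 mutant arrays lay below all 4 wild-type arrays at 1 year, whereas at 1 month the groups overlapped.

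**Figure D3:**
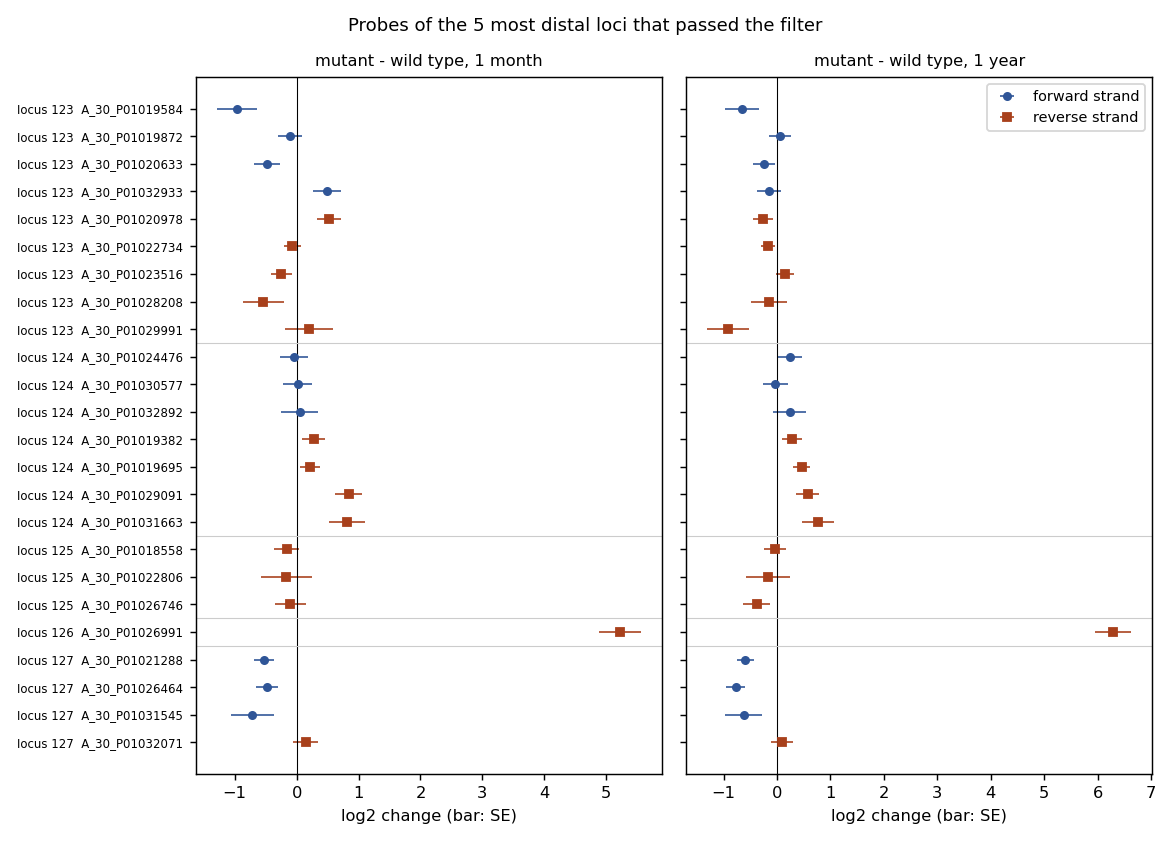
Genotype difference (mutant minus wild type, log2, bars are SE) of every probe that passed the filter in the 5 most distal loci, 123 to 127, at 1 month (left) and 1 year (right); circles are forward and squares reverse strand probes. Locus 126 stands at 5.23 and 6.29, the reverse probes of locus 124 between 0.21 and 0.84, and the forward probes of locus 127 between -0.77 and -0.48.

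In locus 123, chr8:128933150-128943375, the 9 passing probes went in both directions at 1 month (-0.97 to 0.52). The 3 reverse probes of locus 125 at 129.34 Mb had negative changes at both ages, from -0.16 to -0.10 at 1 month and from -0.38 to -0.04 at 1 year. The named genes of chromosome 8 differed most in the most distal of 10 runs along the chromosome. With 920 tested protein-coding genes of the RefSeq table (assembly GRCm38.p6, used for names and order) split into 10 runs of 92 along the chromosome, 22 genes of the most distal run (23.9%) had groups separated at both ages in 1 direction. The other 9 runs held 0 to 2 such genes each, and 3.04% of the 920 genes did so in all. Among the 12 tested genes nearest the distal end, only Kcnk1 was separated at both ages in 1 direction, lower in the mutant. That table is of another build than the regions, so no gene is placed inside or beside a locus here.

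The difference between the genotype effects at the 2 ages was called for 0 of the 122 loci, with limma, against 0.0833% of all probes and 0.0493% of region loci elsewhere. At an unadjusted p under 0.05 there were 4 (3.28%, against 7.86% of all probes), and with normexp 1 locus was called. The smallest p-values were those of A_30_P01029812 (locus 23, chr8:28345511-28361105), A_30_P01024593 (locus 73, chr8:74473445-74496948) and A_30_P01030362 (locus 85), and that of locus 126 was larger (adjusted p = 0.596). A_30_P01029812 was at -0.89, -0.85, -0.58 and -1.17 in the mutants and -1.04, -0.52, -1.62 and -1.48 in the wild types at 1 month. At 1 year it was at -1.20, -0.90, -0.78 and -1.39 in the mutants and -0.55, -0.50, -0.69 and -0.18 in the wild types. The genotypes overlapped at 1 month and not at 1 year, and the difference between effects was -0.88 ± 0.31 (adjusted p = 0.424). For A_30_P01024593 it was -0.38 ± 0.15 (adjusted p = 0.511) and for A_30_P01030362 0.63 ± 0.28 (adjusted p = 0.581). At locus 73 all 12 passing probes were lower in the mutant at 1 year (-0.41 to -0.09), against 5 of 12 at 1 month, and none was called. Of all 881 passing chromosome 8 probes, 666 were lower in the mutant at 1 year and 592 at 1 month.

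Between 1 month and 1 year, 1 of the 122 loci was called in the wild types, against 5.68% of all probes and 3.25% of region loci elsewhere. In the mutants 1 was called, against 2.79% of all probes and 1.48% of region loci elsewhere. It was the same locus and the same direction in both genotypes. Locus 59, chr8:67542714-67561694, is represented by the reverse probe A_30_P01031408. Its level was 0.29, 0.30, 0.21 and 0.46 in the 1-month wild types and 0.93, 1.07, 0.65 and 0.87 in the 1-year wild types. In the mutants it was 0.52, 0.48, 0.43 and 0.13 at 1 month and 1.13, 0.86, 1.14 and 0.74 at 1 year.

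In each genotype all 4 of the 1-year arrays of locus 59 lay above all 4 of the 1-month arrays. The rise was 0.56 ± 0.12 in the wild types (adjusted p = 0.0142) and 0.58 ± 0.12 in the mutants (adjusted p = 0.0192), and the genotype differences, 0.07 at 1 month and 0.09 at 1 year, were not called. Of the 15 passing probes of the locus, 12 were higher at 1 year in the wild types and 9 in the mutants. In the wild types 2 forward probes were called too, A_30_P01022915 (0.65 ± 0.15, adjusted p = 0.0157) and A_30_P01018375 (0.74 ± 0.17, adjusted p = 0.0200). The call of A_30_P01022915 was lost without 1-year wild-type replicate 2. That of A_30_P01018375 was lost with normexp (0.17) and without 1-month wild-type replicate 3 or 4 or 1-year wild-type replicate 1 or 2 (adjusted p of up to 0.0765), and it held in 21 of 31 alternative fits. The mean over all probes of the locus gave 0.19 in the wild types and 0.17 in the mutants, not called.

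The call at locus 59 was lost in both genotypes with median scaling (0.61 and 0.63; the 2 loci then called in the wild types were both lower) and without the 4 arrays of slide 1 row 2 (0.49 and 0.53). Within slides, with 2 arrays per group, it was 0.56 and 0.69 on slide 1 and 0.56 and 0.46 on slide 2, none of them called. In the mutants it was also lost without 1-month replicate 3, without 1-year replicate 1 or replicate 3 (0.52 to 0.59), and without the arrays with high Xist (0.59). Lens markers, which stand for tissue next to the retina, moved with age in the wild types: 3 of 4 were above background on all 16 arrays, and their mean level was 6.23 to 6.86 at 1 month and -2.60 to 3.10 at 1 year. The microglial markers given above were also higher at 1 year without overlap in both genotypes, as locus 59 was. In the wild types the RPE markers (1.05 to 1.43, then 1.71 to 2.47) and the 3 muscle markers (0.28 to 1.81, then 1.88 to 2.80) were also higher at 1 year without overlap. Lower at 1 year without overlap in the wild types were the cone markers (3.32 to 3.42, then 2.99 to 3.29). The amacrine and ganglion cell markers (1.72 to 1.86, then 1.56 to 1.69) were so too. In the mutants the lens level was 2.96 to 7.61 at 1 month and -0.08 to 6.61 at 1 year, so those ages overlapped. The 4 melanin synthesis markers were at 2.95 to 3.64 in the 1-month and 3.81 to 4.20 in the 1-year wild types, and at 3.75 to 4.34 and 3.24 to 3.78 in the mutants. Their part in the age results was not tested.

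Counting every probe instead of 1 per locus, 10 of the 881 chromosome 8 probes (1.14%) changed with age in the wild types, 6 higher and 4 lower, where 3.31% of all probes were called higher and 2.37% lower. In the mutants 2 changed (0.227%), both higher, where 1.51% of all probes were called higher and 1.28% lower. The 10 lie in 7 loci. Probe A_30_P01026777 of locus 14 was called in both genotypes: it was at -1.03, -1.47, -1.37 and -1.77 in the 1-month wild types and -1.02, -0.74, -0.74 and -0.68 in the 1-year wild types. In the mutants it was at -1.79, -1.62, -1.59 and -1.50 at 1 month and -0.77, -0.88, -0.83 and -0.85 at 1 year. The mutant ages were well apart, while wild-type replicate 1 at 1 month was level with the lowest 1-year array.

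The rise of A_30_P01026777 was 0.61 ± 0.13 in the wild types (adjusted p = 0.0124) and 0.79 ± 0.13 in the mutants (adjusted p = 0.0036). Most of its locus went the other way: of the 38 passing probes of locus 14, 32 were lower at 1 year in the wild types (median -0.13) and 33 in the mutants (median -0.19). Most chromosome 8 probes did so too: of all 881 that passed, 665 were lower in the wild types (median -0.17) and 673 in the mutants (median -0.15). Locus 14 is 360001 bp wide, so its probes need not report on 1 RNA. At locus 90, chr8:94841965-94881130, the reverse probe A_30_P01027299 rose in the wild types by 0.57 ± 0.11 (adjusted p = 0.0049), from -3.49, -3.36, -3.44 and -3.24 to -2.94, -2.93, -2.64 and -2.73. The ages did not overlap, and with normexp the change was 0.28 and not called. The probe that stands for that locus, A_30_P01032788, gave 0.34 ± 0.10 in the wild types (adjusted p = 0.0548) and 0.38 ± 0.10 in the mutants (adjusted p = 0.0503), not called.

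A loss with age in the wild types alone passed the test for 2 of the 3 probes of locus 1, chr8:4325209-4348788, the first on the chromosome. The probe that stands for the locus, A_30_P01019948, was not called (-0.44 ± 0.17, adjusted p = 0.160), and its ages overlapped. The forward probe A_30_P01030249 was at -3.51, -3.73, -3.57 and -3.59 in the 1-month and -4.07, -4.14, -4.41 and -4.04 in the 1-year wild types, a fall of 0.57 ± 0.12 (adjusted p = 0.0139). The forward probe A_30_P01018962 was at -2.23, -2.29, -2.40 and -2.39 and then at -2.90, -2.72, -3.06 and -2.58, a fall of 0.49 ± 0.11 (adjusted p = 0.0162). In both the 1-year arrays all lay below the 1-month arrays. In the mutants the age differences of these probes were 0.13 and 0.02, and the difference between the age changes was 0.70 ± 0.17 (adjusted p = 0.197) and 0.51 ± 0.15 (adjusted p = 0.305), so a difference between the genotypes was not called. Without the arrays of slide 1 row 2 neither loss was called (-0.55 and -0.49), and that of A_30_P01018962 was also not called without wild-type replicate 1 of either age.

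The remaining called probes were all on the reverse strand and called in the wild types. A_30_P01028549 of locus 100, chr8:111669528-111772271, fell by 0.50 ± 0.11 (adjusted p = 0.0125). Of the passing probes of that locus, 8 of 9 had negative changes, as did 665 of all 881 passing chromosome 8 probes. The call of A_30_P01028549 was lost without 1-year wild-type replicate 1 (adjusted p = 0.0506). A_30_P01033208 of locus 101, chr8:113968152-113973727, fell by 0.37 ± 0.10 (adjusted p = 0.0366), and in the mutants its change was -0.33 (adjusted p = 0.0953). This call held in 14 of 31 alternative fits: it was lost without 1-month mutant replicate 2 or 3, 1-month wild-type replicate 1, 2 or 4, or 1-year wild-type replicate 1, 2 or 4 (adjusted p of up to 0.109). A_30_P01020978 of locus 123 rose by 0.75 ± 0.19 (adjusted p = 0.0310), from -3.16, -3.08, -3.15 and -3.36 to -2.30, -2.52, -2.03 and -2.88, whereas 6 of the 9 probes of locus 123 were lower. The probe that stands for that locus, A_30_P01023516, changed by -0.57 and was not called. It was called lower without 1-month wild-type replicate 4 (adjusted p = 0.0204), 1-year wild-type replicate 2 (0.0359) or 1-month mutant replicate 4 (0.0409). The 1-year wild-type arrays of A_30_P01020978 all lay above the 1-month arrays. Its call held in 18 of 31 alternative fits and was lost without any 1 of the 1-month wild-type arrays or without 1-year wild-type replicate 1, 2 or 3 (adjusted p of up to 0.100).

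**Figure D4:**
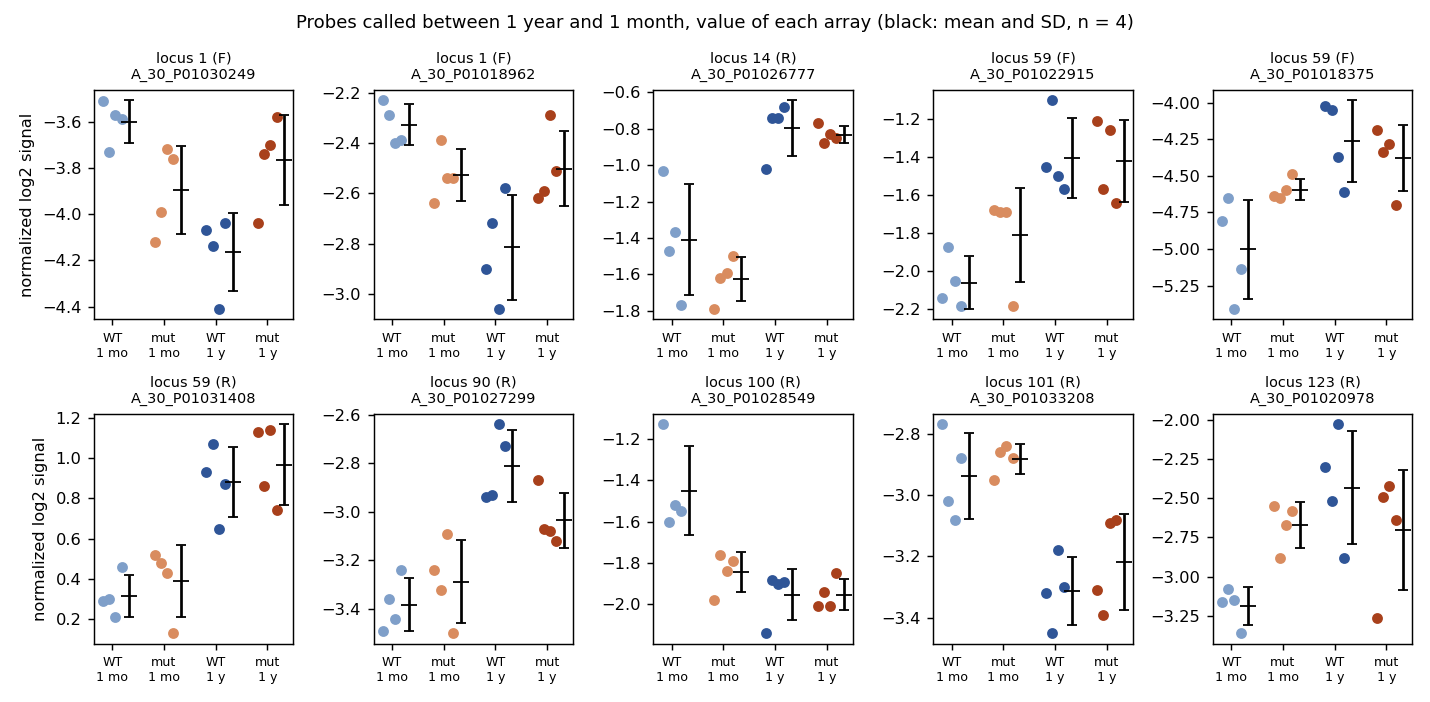
Normalized log2 signal of the 10 chromosome 8 probes called between 1 year and 1 month, by array and group (F and R are the forward and reverse strand; black, mean and SD, n = 4). In the wild types 6 probes are higher and 4 lower at 1 year; A_30_P01031408 of locus 59 and A_30_P01026777 of locus 14 were called in the mutants too.

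The other named age values were not called. A_30_P01030362 of locus 85 was at 0.16, -0.11, 0.19 and -0.31 in the 1-month and -1.12, -0.43, -0.67 and -0.57 in the 1-year wild types, with no overlap (-0.68 ± 0.19, adjusted p = 0.0565). A_30_P01020011 of locus 93, chr8:106037800-106070025, was at -2.23, -1.72, -1.92 and -1.65 in the 1-month and -2.24, -2.32, -2.76 and -2.30 in the 1-year mutants, also without overlap (-0.53 ± 0.18, adjusted p = 0.152). Over the 122 loci the median age change was -0.17 in the wild types and -0.15 in the mutants, with 25 and 22 loci higher at 1 year. The medians of all probes were -0.09 and -0.09, and those of region loci elsewhere -0.18 and -0.14. Ages that did not overlap were found for 13 loci in the wild types (3 higher, 10 lower), a share of 10.7% against 13.9% of all probes, 5.83% higher and 8.11% lower. In the mutants there were 8 (3 higher, 5 lower), a share of 6.56% against 10.5% of all probes, 4.43% higher and 6.11% lower. At an unadjusted p under 0.05, 20 loci (16.4%) passed in the wild types and 13 (10.7%) in the mutants. Of all probes, 19.9% and 15.8% did so.

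Of the 5 loci whose probes had the highest mean signal, none was called in any of the 5 comparisons, although locus 54 was called at 1 month without mutant replicate 4, as given above. Probe brightness depends on the probe as well as on the RNA, so levels of different loci are not compared. The mean levels of the tested loci over the 16 arrays ran from -6.29 to 4.24. Beside locus 54, they were locus 88 (chr8:91569369-91594119, A_30_P01033392), locus 32 (chr8:40238025-40264250, A_30_P01022214), locus 40 (chr8:48476637-48492537, A_30_P01032305) and locus 74 (chr8:74820025-74833350, A_30_P01031572). A_30_P01033392 was at 4.25 ± 0.13 in mutants and 4.41 ± 0.17 in wild types at 1 month, and at 4.03 ± 0.25 and 4.09 ± 0.14 at 1 year.

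A_30_P01022214 stood between 3.71 and 3.86 in all 4 group means, and A_30_P01032305 between 3.29 and 3.63. Neither was called between genotypes (adjusted p of 0.510 or more). A_30_P01031572 was at 3.40 ± 0.27 in the 1-month mutants against 2.94 ± 0.04 in the wild types, without overlap but not called (0.47, adjusted p = 0.219). The loci with the most passing probes were loci 14 (38), 112 at chr8:122920901-123008463 (32) and 69 at chr8:72663591-72673010 (23). In locus 112, 26 of 32 probes were lower in the mutant at 1 month and 27 of 32 at 1 year, with medians of -0.20 and -0.09 and no call. Of all 881 passing chromosome 8 probes, 592 were lower in the mutant at 1 month and 666 at 1 year. In locus 69 the probes were split, 12 higher and 11 lower at 1 month, and 9 and 14 at 1 year.

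Probes of the same interval often disagreed on direction, which bears on how far 1 probe speaks for its locus. Of the 231 combinations of span and strand with at least 2 passing probes, all probes shared a direction in 112 for the 1-month genotype difference, 119 for that at 1 year, 124 for age in the wild types and 117 for age in the mutants. Of the 74 loci with passing probes on both strands, the strands shared a direction in 43, 59, 52 and 54, respectively. Locus 126 has only 1 probe, so its difference could not be compared with a second probe of the same interval.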

How the data were processed

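Per the file headers, the scanner files hold the background-subtracted fluorescence intensity of each spot from Agilent Feature Extraction 11.0.1.1 on a design of build mm9. A log2 matrix deposited by the authors served as an alternative. Here the log2 of that signal minus its 75th percentile on the same array was used, without outlier spots and with spots of a probe averaged. The filter (4 of 16 arrays well above background) kept 49241 probes. limma 3.58.1 (R 4.3.3) fitted 4 group means to all 16 arrays, and p-values (two-sided) were adjusted over all probes for 5 contrasts; errors of changes are SE. The fit was tested on simulated data. The members and lists were chosen with earlier results of these data known. Named loci are the called ones, those with the smallest p up to 3 per comparison, the 5 brightest, the 3 with the most passing probes and those separated at both ages; called probes of other loci and the distal loci were added after their values were seen. A lower bound on a fold sets the mean of the bright group against, per array, the higher of the probe's own signal and the lowest signal marked well above background. It is no bound under another background correction. The scanner files show 2 slides, each with 2 arrays of every group; on slide 2 all wild types are in row 1 and all mutants in row 2. Alternatives covered background correction (normexp with an offset of 50), scaling, filters, slide, row, female pattern, how loci are joined, and single arrays left out. Gene names came from RefSeq accessions, which matched 27235 probes to 20660 genes. Precision is limited by the 4 arrays in each group.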

Additional observations from a re-analysis of the deposited data

Results flagged for a closer look

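Among 80 groups of 4 arrays (20 named probes in 4 groups) and the 4 groups of detected locus counts, 8 held an array far from the other 3, where chance gives about 1 in 20. A_30_P01027500 was -2.86 on mutant 1-year replicate 3 (the others -2.24 to -2.12), and A_30_P01020011 was -2.76 on the same array (-2.32 to -2.24). On mutant 1-month replicate 4, A_30_P01024593 was -0.044 (0.21 to 0.26) and A_30_P01022915 was -2.18 (-1.69 to -1.68). On wild-type 1-month replicate 1, A_30_P01032788 was -2.47 (-2.37 to -2.35) and A_30_P01028549 was -1.13 (-1.60 to -1.52). A_30_P01028549 was also -2.14 on wild-type 1-year replicate 1 (-1.90 to -1.88). Detected loci numbered 121 on mutant 1-year replicate 1 and 122 on each of the other 3 arrays of its group.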

How the results depend on the processing

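The difference at locus 126 kept its direction in all 30 alternative fits per age and its call in 29, the exception being slide 1 alone; above background on all 16 arrays it could not be tested. Over all named probes, 668 alternative values kept direction and side of the threshold, 82 lost a call, 18 gained one and 5 reversed. The 5 reversed when a locus's probes were averaged: A_30_P01024460 at 1 month 0.15, A_30_P01032788 in the mutants with age -0.00049, A_30_P01026777 with age -0.13 in the mutants and -0.14 in the wild types, and A_30_P01020978 with age in the wild types -0.034. Counts of called loci (1, 1, 0, 1 and 1 for 1 month, 1 year, the difference between effects, age in wild types and age in mutants) moved as follows. With normexp they were 1 for the difference, 2 and 2 for age. Age in wild types gave 3 with quantile normalization, the deposited matrix or slide as a block, 2 with same-strand loci and 7 counting any called probe (2 in mutants). Median scaling gave 2 in wild types, both lower, and 0 in mutants, averaged loci 2 and 0, the female pattern as a covariate 2 and 2, and leaving those arrays out 0 in mutants. The filter on all 16 arrays gave 0, 0, 4 and 2 for 1 month, 1 year and the 2 age comparisons, slide 1 alone 0 in all 4, slide 2 alone 0 and 0 for age, and leaving out slide 1 row 2 (chosen after seeing the data, as was counting any called probe) 0 and 0 for age. Leaving out 1 array gave 1 to 6, 1 to 1, 0 to 0, 1 to 4 and 0 to 2. Detected loci averaged 121.19 per array, and 104.44 over the brightest negative control. With the replicate number as a block the counts were 1, 1, 0, 1 and 1, and A_30_P01020978 and A_30_P01033208 lost their calls; over all probes 316 and 112 were called at 1 month and 1 year, 12 for the difference and 1947 and 919 for age. Arrays sharing a number did not deviate together (mean r -0.05 over 24 pairs, against 0.02 over 72 others; 2 of 16 arrays correlated best with their own number), so the numbers are not taken to pair samples. The cause of these changes was not tested. Low signal limits the wild-type level of locus 126 and the 140 probes that failed the filter.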
